A study of Mus musculus with 12 samples.

Results

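The genes described here are 10 transcription factor genes of the immediate-early response: the FOS family members Fos, Fosb, Fosl1 and Fosl2, the JUN family members Jun, Junb and Jund, and Egr1, Atf3 and Ier2. They were taken by gene symbol from the tables of 12 RNA sequencing libraries of mouse skin, and all 10 were among the 25965 genes listed. Cells came from 3 compartments, which the labels abbreviate IFE, ORS (outer root sheath) and HFSC (hair follicle stem cells), with 2 control and 2 libraries labelled Egfr knockout in each. Controls of all compartments have the genotype EGFR_fl_fl, a floxed Egfr that is not deleted. The knockout genotype is EGFR_delta_ep in IFE and ORS and EGFR_delta_LGR5 in HFSC, and the labels name neither the Cre line nor the age or sex of the animals. The labels pair the abbreviation IFE with the inner root sheath, although it is widely used for interfollicular epidermis, and it is kept here as a name. Libraries are called by the letter and number in their titles, and the labels do not say whether they stem from different animals. By Xist and Y-linked reads ORS controls E341 and E344 differed in sex, so these 2 stem from different animals. Within the other groups this is not known. The p-values therefore measure spread between libraries only, which may be partly or wholly technical there.

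AP-1 is a dimer of a FOS protein with a JUN protein, or of JUN proteins with each other, and it binds a short palindrome in promoters and enhancers. The immediate-early genes are switched on within minutes of a growth factor signal, without new protein synthesis, through ERK-phosphorylated ETS factors with SRF and through CREB. EGFR is one of the receptors that feed this response, and in the epidermis AP-1 factors also act on differentiation genes. The same genes respond to wounding and to the handling of tissue when cells are released for sorting.

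Levels are given as CPM, reads per 1000000 reads in genes after scaling between libraries by the trimmed mean of M values (TMM). Reads in genes numbered 11.4 to 27.7 M per library, and a read was worth 0.0353 to 0.0892 CPM. Egfr had 0 and 4 reads in the IFE knockouts E358 and E359 and 1.42% and 21.1% of the control mean in the ORS knockouts E358 and E359. It was at 81.5% and 80.6% of control in the HFSC libraries labelled knockout, L95 and L97, so directions in HFSC refer to the labels only. By Xist and Y-linked reads the IFE controls were male and the knockouts female, the HFSC controls female and the libraries labelled knockout male, while ORS had 1 male library, control E341, and 3 female ones. Sex and label cannot be told apart in IFE and HFSC. Of the 6 inner root sheath markers, 3 had reads in IFE controls, where the list summed to 883 to 916 CPM, of which Gata3 made 864.5 to 910.9 CPM. Krt25 was at 0 in all IFE libraries, while the 3 suprabasal markers summed to 6406 to 8201 CPM there. The 6 bulge stem cell markers summed to 37470 to 40560 CPM in HFSC controls, of which Krt15 made 32600 to 36710 CPM, and to 7141 to 7302 CPM in ORS controls. Cd34 was at 1342 and 2143 CPM in HFSC controls and 3.07 to 4.10 CPM in ORS controls, while Lgr5 (132 and 335 against 341.2 and 340.5 CPM) and Nfatc1 (202 and 247 against 406 and 500.5 CPM) were not higher in HFSC. The 7 leukocyte markers, 3 or 4 of them with reads in each group, summed to 13.6 to 61.4 CPM, with Ptprc at 0 in all libraries.

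Fos encodes c-FOS, the founding FOS family protein, and lies on chromosome 12 (85473890 to 85477273, + strand, mm10). In IFE it was at 390.4 CPM in control E341, 116 CPM in control E360, and 107 and 157 CPM in knockouts E358 and E359. In ORS it was at 113 and 49.5 CPM in controls E341 and E344 and at 16.3 and 21.6 CPM in knockouts E358 and E359, so both knockouts were below both controls. The HFSC libraries split differently, with 351 CPM in control L94 and 252 CPM in L97, which is labelled knockout, against 35.7 CPM in control L136 and 61.3 CPM in L95, labelled knockout. Fosb, a close relative of Fos that also exists as a short stable isoform, lies on chromosome 7 (19302721 to 19310045, - strand). It was at 32.6 and 4.82 CPM in IFE controls E341 and E360 and at 10.1 and 11.6 CPM in the knockouts. In ORS its 4 values were 18.1 and 13.7 CPM in controls E341 and E344 and 3.59 and 1.81 CPM in knockouts E358 and E359. Its HFSC values repeated the split of Fos: 49.4 CPM in L94 and 46.9 CPM in L97, 4.61 CPM in L136 and 4.28 CPM in L95. Fos and Fosb were therefore lower in both ORS knockouts than in either ORS control, and in HFSC each genotype held 1 high and 1 low library.

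Because Fos and Fosb differed together between libraries, and Junb of the JUN family was also below its controls in both ORS knockouts, the 250 bases before the annotated start site of these 3 genes are shown, 5′ to 3′ on the gene's strand. They come from RefSeq on GRCm38.p6, which gave a promoter entry for 7 of the 10 genes. The stretches are chr12:85473640-85473889 (+) for Fos, chr7:19310046-19310295 (-) for Fosb and chr8:84978749-84978998 (-) for Junb. Capitals mark the core of the cyclic AMP response element (CRE core, TGACG), the TATA box (TATAAA) and the EGR site (GCGGGGGCG), searched on both strands. Of the other genes below their controls in both ORS knockouts, Egr1 and Ier2 have no entry. Fosl2 has an entry that is not printed, with an EGR site and no CRE core.
Fos: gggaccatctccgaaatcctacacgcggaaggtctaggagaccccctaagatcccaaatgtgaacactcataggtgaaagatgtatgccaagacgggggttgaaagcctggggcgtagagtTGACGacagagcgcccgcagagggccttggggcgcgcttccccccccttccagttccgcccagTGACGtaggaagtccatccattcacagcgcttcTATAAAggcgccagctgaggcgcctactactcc
Fosb: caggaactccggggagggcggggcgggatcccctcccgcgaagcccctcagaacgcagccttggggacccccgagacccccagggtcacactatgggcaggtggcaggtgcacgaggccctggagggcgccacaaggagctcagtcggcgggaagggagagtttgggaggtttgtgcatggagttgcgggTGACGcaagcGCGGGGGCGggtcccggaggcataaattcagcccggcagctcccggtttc
Junb: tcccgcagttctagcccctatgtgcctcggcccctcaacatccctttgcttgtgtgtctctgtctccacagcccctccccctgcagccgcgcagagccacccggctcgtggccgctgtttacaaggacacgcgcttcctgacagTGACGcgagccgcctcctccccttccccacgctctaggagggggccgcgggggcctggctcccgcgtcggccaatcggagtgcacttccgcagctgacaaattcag

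Matches were counted from 250 bases before to 50 bases after the start site. The CRE core, the letters bound by CREB and ATF proteins, was present at 129 to 125 and at 66 to 62 bases before the Fos start, at 60 to 56 before Fosb, at 106 to 102 before Junb and at 7 to 3 before Atf3. These are 4 of the 7 promoters, and 20.8% of 32851 promoters of this length hold the core. The TATA box lay 33 to 28 bases before the Fos start and from base 1 to base 6 after the annotated Junb start, and 13.6% of all promoters hold it. The EGR site, the letters bound by EGR1, lay 50 to 42 bases before Fosb and 79 to 71 before Fosl2, and 2.91% of all promoters hold it. None of the 7 windows held an exact match to the AP-1 site TGANTCA (7.81% of all promoters), the full CRE TGACGTCA (1.79%), the CArG box of SRF (1.63%) or the ETS site CCGGAAGT (3.89%). Near matches, such as TGACATCA in the Jun window, and sites farther from the start were not counted. The genes are therefore not shown to lack such sites. The core is part of the full CRE, and no other of these motifs contains another. The matches are letters only, and no binding was measured. Annotations differ on some starts. The start used lies upstream of the GENCODE start for Junb (84978748 against 84978718, - strand) and for Jund (70697739 against 70698949, + strand). It lies downstream of the GENCODE start for Atf3 (191183340 against 191218039, - strand), Fosl2 (32136472 against 32135801, + strand) and Fosb (19310045 against 19310051, - strand). The positions given for these genes depend on the start used. The Jund window had 46.67% GC, against 58.67% to 68.33% in the others. Whether that window holds the Jund promoter was not tested.

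**Figure D1:**
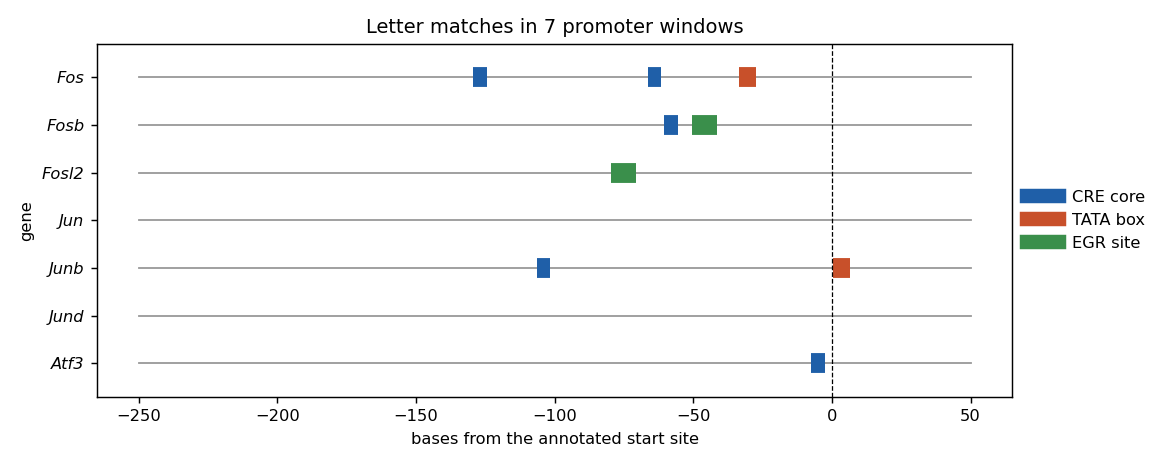
Position of the matched letters in 7 promoter windows. The x axis gives bases from the annotated start site (dashed line at 0), each row is a gene, and coloured blocks are matches on either strand. The windows of Fos, Fosb, Junb and Atf3 hold the CRE core. Those of Jun and Jund hold no exact match to the motifs searched, and annotations differ on the starts of Fosb, Fosl2, Junb, Jund and Atf3.

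The remaining FOS genes behaved differently from Fos. Fosl1 encodes FRA-1, a factor without its own transactivation domain that is induced through ERK signalling, on chromosome 19 (5447703 to 5455945, + strand). It had 168 reads (10.3 CPM) in L95 and 295 reads (18.4 CPM) in L97, the HFSC libraries labelled knockout, against 15 reads (1.33 CPM) in control L136 and 0 reads in control L94, which allows up to 0.197 CPM at 3 reads. Outside HFSC its highest value was 4.32 CPM in IFE control E341. The other IFE libraries had 0.268 CPM (control E360), 0 (knockout E358) and 0.482 CPM (knockout E359), and the ORS libraries had 9 reads in control E341 and 0 in the other 3. Fosl2 encodes FRA-2, which is known to be abundant in differentiating keratinocytes, on chromosome 5 (32136472 to 32157831, + strand). It was at 721 and 583 CPM in IFE controls E341 and E360, at 577 and 427 CPM in the IFE knockouts, at 184 and 192 CPM in ORS controls E341 and E344, and at 156 and 164 CPM in the ORS knockouts. HFSC values were 175 CPM (control L94), 299.6 CPM (control L136), 215 CPM (L95) and 226 CPM (L97). Fosl2 was thus high in all 4 IFE libraries and did not share the HFSC split of Fos and Fosb.

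In IFE controls and both HFSC groups the JUN genes differed less than Fos and Fosb between the libraries of a group. Jun encodes c-JUN, the main partner of the FOS proteins, on chromosome 4 (95049034 to 95052222, - strand), and was highest in HFSC, at 300.4 CPM in control L94, 304 CPM in control L136, 193 CPM in L95 and 294 CPM in L97. In IFE it was at 106 and 90.3 CPM in controls E341 and E360 and 57.0 and 64.3 CPM in knockouts E358 and E359, and in ORS at 102 and 66.3 CPM in controls E341 and E344 and 85.8 and 57.1 CPM in knockouts E358 and E359. Both IFE knockouts were below both IFE controls, while the ORS groups overlapped. Junb, which can oppose c-JUN in cell growth, lies on chromosome 8 (84976909 to 84978748, - strand). It was at 24.4 and 29.8 CPM in IFE controls and 25.5 and 35.6 CPM in IFE knockouts, at 21.1 and 27.9 CPM in ORS controls and 7.06 and 17.0 CPM in ORS knockouts, and at 33.4 CPM (L94), 37.6 CPM (L136), 37.8 CPM (L95) and 58.4 CPM (L97) in HFSC. Jund, the JUN gene usually described as constitutive, lies on the same chromosome (70697739 to 70700616, + strand). It spanned 36.3 to 41.8 CPM in IFE controls, 29.4 to 30.9 CPM in IFE knockouts, 10.98 to 14.6 CPM in ORS controls, 6.51 to 12.6 CPM in ORS knockouts, 39.5 to 42.0 CPM in HFSC controls and 35.0 to 35.2 CPM in the HFSC libraries labelled knockout. Both IFE and HFSC libraries were thus above all 4 ORS libraries for Jund.

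Among the factors outside AP-1 proper, Egr1 encodes a zinc finger factor that is induced through SRF and ETS factors. In ORS it was at 152 and 236 CPM in controls E341 and E344 and at 32.1 and 19.9 CPM in knockouts E358 and E359. IFE libraries had 83.0 and 14.98 CPM in controls E341 and E360 and 34.3 and 15.7 CPM in knockouts E358 and E359. HFSC libraries had 252 CPM (control L94), 118 CPM (control L136), 137 CPM (L95) and 214 CPM (L97). Both ORS knockouts lay within the range of the IFE libraries, and both ORS controls within that of HFSC. Atf3, a stress-induced partner of JUN proteins that mostly represses (chromosome 1, 191170296 to 191183340, - strand), was nearly absent from ORS: 1 and 5 reads in controls E341 and E344, 0 in knockout E358 and 1.51 CPM (40 reads) in E359. It was at 101 and 46.6 CPM in HFSC controls L94 and L136 and 42.1 and 53.1 CPM in L95 and L97. IFE values were 25.8 CPM in control E341, 0.624 CPM (7 reads) in control E360, and 14.4 and 9.80 CPM in the knockouts, so the 2 IFE controls lay on either side of both knockouts. Ier2, a small immediate-early nuclear protein (chromosome 8, 84661331 to 84662852, - strand), was at 47.9 and 56.3 CPM in IFE controls, 9.98 and 70.1 CPM in IFE knockouts E358 and E359, 38.3 and 53.1 CPM in ORS controls and 32.5 and 30.8 CPM in ORS knockouts. Its HFSC values were 106 and 84.6 CPM in controls L94 and L136 and 98.8 and 96.9 CPM in L95 and L97, above every IFE and ORS library.

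**Figure D2:**
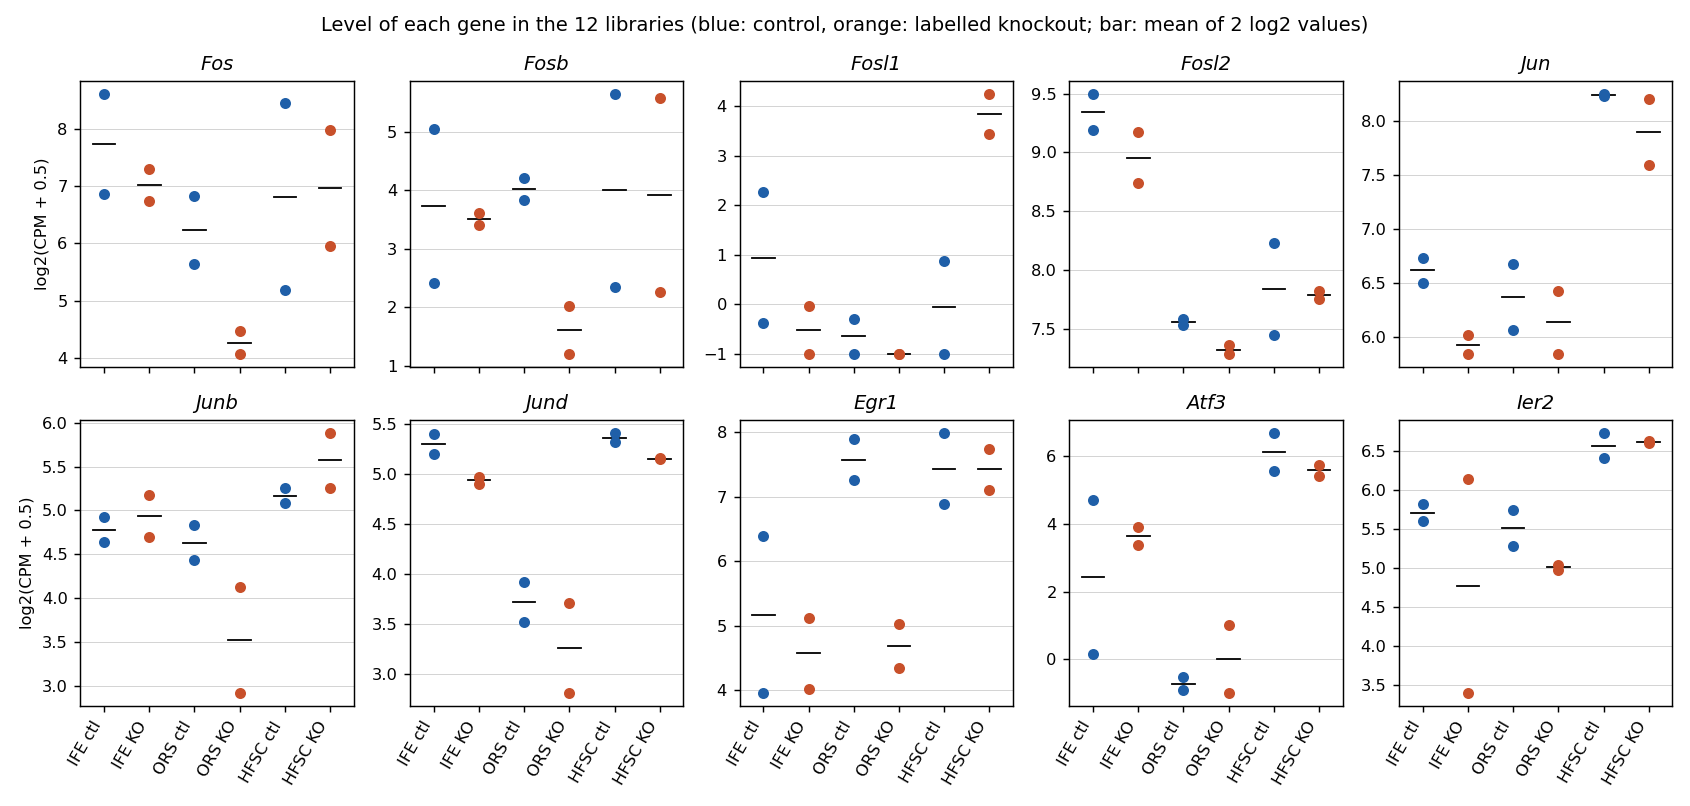
Level of the 10 genes in the 12 libraries. The y axis of each panel is log2(CPM + 0.5) on its own range, blue points are controls, orange points are libraries labelled knockout and bars are the mean of 2 log2 values; both orange ORS points of Fos, Fosb and Egr1 lie below both blue ones, and the HFSC points of Fos and Fosb are split within each group.

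Per kilobase of annotated exon, Fos led the set in 1 control library of each compartment and another gene in the other. In IFE controls Fos was at 166 CPM per kb in E341, ahead of Fosl2 at 74.5, and in E360 Fosl2 led with 60.2 CPM per kb, ahead of Fos at 49.1. In ORS controls Fos led in E341 with 47.9 CPM per kb, ahead of Egr1 at 33.8, and Egr1 led in E344 with 52.7 CPM per kb, ahead of Ier2 at 34.9. In HFSC controls Fos led in L94 with 149 CPM per kb, ahead of Jun at 94.2, and Jun led in L136 with 95.4 CPM per kb, ahead of Ier2 at 55.6. Annotated exons of 4 of the 10 genes overlap a gene on the opposite strand (Fosl1 with Ccdc85b, Jun with Junos, Junb with Prdx2, Jund with Gm11175). Whether counting used strand is not given in the sources used here, so reads of such pairs cannot be told apart. Prdx2 was above Junb in all libraries, at 716 to 777 CPM in IFE, 614.9 and 542.7 CPM in ORS controls, 552.9 and 502.4 CPM in ORS knockouts and 259 to 281 CPM in HFSC, and its part in the Junb reads was not tested. Ccdc85b was at 2.93 and 4.99 CPM in HFSC controls L136 and L94 and at 3.91 and 1.87 CPM in L95 and L97, and its part in the Fosl1 reads was not tested.

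The ORS knockout comparison asks which of these transcripts differ when Egfr is deleted in outer root sheath cells. Egr1, Fos and Fosb showed the largest differences, all toward lower levels in the knockouts, and none passed the test over all genes. By limma, the log2 fold change on log2(CPM + 0.5) was -2.88 for Egr1 (SE 0.71, unadjusted p = 0.0022, adjusted p = 1). For Fos it was -1.96 (SE 0.56, unadjusted p = 0.0054, adjusted p = 1) and for Fosb -2.40 (SE 0.91, unadjusted p = 0.0244, adjusted p = 1). As ratios the knockout level was 0.136 of control for Egr1 (95% interval 0.0454 to 0.405), 0.256 for Fos (0.108 to 0.607) and 0.189 for Fosb (0.0465 to 0.769). Junb had a log2 fold change of -1.11 (SE 0.56, unadjusted p = 0.0744, adjusted p = 1), and Ier2, Jund, Fosl2 and Jun lay between -0.50 and -0.23 (limma adjusted p = 1 for each). Atf3 was at 0.72 (SE 1.39, limma adjusted p = 1) on 6 reads in the controls and 40 in the knockouts.

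Over all 14449 genes tested by limma, 0.0% were called in ORS at an adjusted p under 0.05, and limma-voom also called 0. The deleted gene Egfr was itself not called, at a log2 fold change of -4.095 (SE 0.95, limma unadjusted p = 0.0014). An adjusted p above the threshold therefore does not show that a gene is unchanged here. At an unadjusted p under 0.05, 2.08% of all genes were lower and 1.3% higher, against 3 lower and 0 higher of the 9 genes of the set that were tested. The 3 fell to 1 without control E341 and to 2 without control E344. Both knockouts lay below both controls for 6 of the 9 (Fos, Fosb, Fosl2, Junb, Egr1 and Ier2), against 16.8% of all genes, and above both for 0 of the 9, against 14.6%. The median log2 fold change was -0.50 over the 9 genes and -0.03 over all genes. Control E341 was the only male ORS library, and in the fit without it, with female libraries only in ORS, the log2 fold changes were -3.20 for Egr1, -1.37 for Fos, -2.21 for Fosb and -1.31 for Junb (limma adjusted p = 1 for each). The 3 suprabasal markers summed to 245 to 338 CPM in ORS controls and 132 to 209 CPM in knockouts, and all 3 had reads in both groups. The part of such cells in the differences was not tested. In libraries of mixed cells, fewer cells of a type and less RNA per cell cannot be told apart.

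In IFE, where Egfr transcript was lost most completely, none of the 9 tested genes was called or had an unadjusted p under 0.05. Over all genes, limma and limma-voom called 0.0%, and 4.4% were lower and 3.14% higher at an unadjusted p under 0.05. Egfr itself was not called in IFE either (-7.72, SE 0.95, limma adjusted p = 0.0819). The largest differences were in Atf3 (log2 fold change 1.19, SE 1.39), Ier2 (-0.95, SE 0.72), Fos (-0.71, SE 0.56) and Jun (-0.69, SE 0.34), with limma adjusted p of 0.910, 0.838, 0.843 and 0.715. Jun, Jund and Fosl2 were lower in both knockouts than in both controls, 3 of 9 against 17.0% of all genes, and 0 of 9 were higher in both, against 13.8%. Their knockout to control ratios were 0.621 for Jun (95% interval 0.366 to 1.05), 0.776 for Jund (0.338 to 1.78) and 0.766 for Fosl2 (0.549 to 1.07). For Egr1 the ratio was 0.660 (0.221 to 1.97), for Fosb 0.853 (0.210 to 3.47) and for Junb 1.11 (0.472 to 2.63). The signs of Fos, Fosb and Egr1 rested on control E341: without it their log2 fold changes were 0.16, 1.09 and 0.61. The sign of Atf3 rested on control E360 (-1.09 without it) and that of Ier2 on knockout E358 (0.43 without it). The 6 fibroblast markers, of which 4 had reads in controls and 3 in knockouts, summed to 177 to 199 CPM in IFE controls and 236 to 302 CPM in knockouts. Most of the sum was Dcn (187 and 127 CPM in controls, 281 and 213 CPM in knockouts), while Col1a2 was at 12.4 and 42.4 CPM against 20.04 and 12.9 CPM and Col1a1 and Pdgfra were at 0 in both knockouts. Their part was not tested.

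In HFSC, Fosl1 was the member with the largest difference, at higher levels in the libraries labelled knockout. Its log2 fold change was 3.90 (SE 0.84, unadjusted p = 0.0022), and it was not called over all genes (limma adjusted p = 0.384). As a ratio this is 14.9 on the log2(CPM + 0.5) scale, with a 95% interval of 3.77 to 59.0. With 15 and 0 reads in the controls this size depends on the pseudocount and method: the log2 fold change was 2.62 with a pseudocount of 2, 5.20 with 0.1 and 6.30 by limma-voom. Without the reads of the libraries labelled knockout Fosl1 would not have passed the filter on low reads in HFSC. The other 9 genes lay between -0.54 (Atf3) and 0.40 (Junb), with limma adjusted p of 0.7495 or more. Fos (0.15, SE 1.03) and Fosb (-0.08, SE 1.28) had the widest intervals of the 10, since each group held 1 high and 1 low library. Their ratios of 1.11 and 0.943 carried 95% intervals of 0.207 to 5.90 and 0.117 to 7.63. Egr1, at 0.991 of control (0.542 to 1.82), had a narrower interval.

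Limma called 0.0363% of 13778 genes in HFSC, 0 of the 10 among them. At an unadjusted p under 0.05, 1 of the 10 was higher against 4.12% of all genes, and 0 of the 10 were lower against 3.45%. Fosl1 and Junb were higher in both libraries labelled knockout than in both controls, 2 of 10 against 19.7% of all genes. Jun and Jund were lower in both, 2 of 10 against 18.3%, so these shares of the set are close to those of all genes. The bulge marker list, with reads for 6 of 6 genes in both groups, summed to 37470 to 40560 CPM in controls and to 22890 to 27620 CPM in the libraries labelled knockout. Krt15 made most of this, with 36710 and 32600 CPM in L136 and L94 against 23350 and 19230 CPM in L95 and L97, while Lgr5, Sox9, Cd34, Lhx2 and Nfatc1 were at 132 to 335, 1749 to 1921, 1342 to 2143, 261 to 395 and 202 to 247 CPM in controls and at 284 to 356, 1554 to 1991, 1330 to 1447, 280 to 286 and 197 to 210.2 CPM there. The list's part in the Fosl1 difference was not tested. Fosl1 was not tested in IFE and ORS, where it did not reach 10 reads in 2 libraries.

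**Figure D3:**
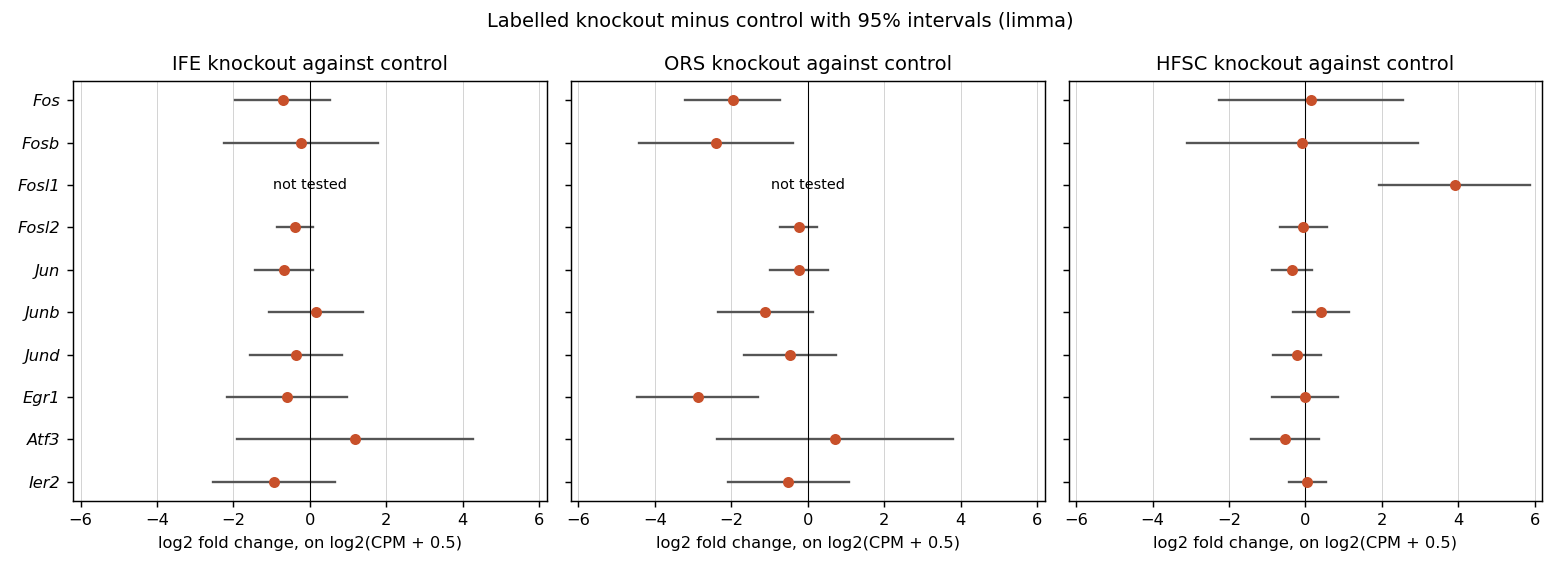
Labelled knockout minus control for each gene and compartment. Points are limma log2 fold changes on log2(CPM + 0.5), lines are 95% intervals and the vertical line is 0; only Egr1, Fos and Fosb in ORS and Fosl1 in HFSC have intervals that leave out 0, and none of the 4 passes adjustment over all genes.

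The difference between compartments in the labelled effect was tested directly. For ORS minus IFE, 0.0% of 14449 genes were called by limma and none of the 9. Egfr was not called there either, at 3.625 (SE 1.35, limma adjusted p = 0.999). The difference was -2.28 for Egr1 (SE 1.01, unadjusted p = 0.0460), -2.17 for Fosb (SE 1.29, unadjusted p = 0.122) and -1.25 for Fos (SE 0.79, unadjusted p = 0.145), each with a limma adjusted p of 0.999. The other 6 lay between -1.26 (Junb) and 0.46 (Jun) with the same adjusted p. A larger effect in ORS than in IFE is therefore not shown for these genes. For HFSC minus ORS, in a fit of all 12 libraries, 0.0% of 15251 genes were called. Egr1 differed by 2.87 (SE 0.96, unadjusted p = 0.0115, adjusted p = 0.930), Fosb by 2.32 (SE 1.74), Fos by 2.11 (SE 1.33) and Junb by 1.51 (SE 0.67, unadjusted p = 0.0439), the last 3 with a limma adjusted p of 1. Atf3, Jun, Fosl2, Jund and Ier2 lay between -1.25 and 0.55 (limma adjusted p = 1 for each). For HFSC minus IFE, again with 0.0% called, the 9 genes other than Fosl1 lay between -1.72 (Atf3, SE 1.71) and 0.99 (Ier2, SE 0.90), with limma adjusted p of 0.892 or more. Without IFE control E360 the Atf3 value was 0.55, and without IFE knockout E358 the Ier2 value was -0.38. Fosl1 differed by 5.36 (SE 1.36, limma adjusted p = 0.347) for HFSC minus IFE and by 4.25 (SE 1.36, limma adjusted p = 0.884) for HFSC minus ORS. It had 0 to 9 reads in 7 of the 8 IFE and ORS libraries, so these sizes are imprecise. HFSC has another deletion genotype, and its titles carry the letter L where the others carry E. The labels do not say whether HFSC was a separate experiment, so compartment and any such difference cannot be told apart.

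Several differences between compartments passed the test. Fos, Fosl2, Jund and Atf3 were lower in ORS than in IFE over both genotypes, 4 of the 9 tested genes against 15.8% of all genes called in either direction. By limma the log2 fold changes were -2.13 for Fos (SE 0.40, adjusted p = 0.0051), -1.71 for Fosl2 (SE 0.15, adjusted p = 5.89e-05), -1.63 for Jund (SE 0.38, adjusted p = 0.0165) and -3.39 for Atf3 (SE 0.98, adjusted p = 0.0415). Egr1 differed the other way, by 1.26 (SE 0.50, adjusted p = 0.121), and within ORS it was high in the controls. Fosb was at -0.80 (SE 0.65) and Junb at -0.78 (SE 0.39), with limma adjusted p of 0.446 and 0.215. Jun (-0.02, SE 0.24) and Ier2 (0.02, SE 0.51) had ratios near 1, with 95% intervals of 0.679 to 1.43 and 0.465 to 2.21. Jund was not called without IFE control E341 (adjusted p = 0.0569), ORS control E341 (0.0726) or ORS control E344 (0.0504). The call of Atf3 was lost without the filter on low reads (adjusted p = 0.0863) and in 7 of the 8 fits that left out a library, with adjusted p of 0.0594 to 0.147 there, and its value was -2.26 without IFE control E341. ORS libraries had 50.6% to 54.6% of their total in genes, against 26.9% to 29.6% in the others, and on the deposited scale, where that total is the divisor, the median over all genes was 1.11 and not 0.12. On that scale 6644 genes were called higher and 469 lower, against 1211 and 1069 here, and of the 9 genes 5 were fitted higher, against 2 here. Fos (-1.16), Fosl2 (-0.73) and Atf3 (-4.69) remained lower and called there, and Jund (-0.70, adjusted p = 0.152) did not pass. Jun (0.96, adjusted p = 0.0108) and Egr1 (2.26, adjusted p = 0.0070) were called higher in ORS on that scale by limma, so the direction of Jun depends on the divisor.

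Jun and Atf3 were higher in HFSC controls than in the controls of both other compartments. The HFSC controls were female and the IFE controls male, so sex and compartment cannot be told apart in the comparison with IFE. Against IFE controls, limma called 4 of the 10 genes, against 21.9% of 15251 genes: Jun at 1.62 (SE 0.30, adjusted p = 0.0022), Atf3 at 3.67 (SE 1.21, adjusted p = 0.0484) and Egr1 at 2.27 (SE 0.68, adjusted p = 0.0324) were higher, and Fosl2 at -1.50 (SE 0.25, adjusted p = 0.0012) was lower. The other 6 lay between -1.01 (Fosl1) and 0.86 (Ier2), with limma adjusted p of 0.385 or more. Against ORS controls it called 3 of the 10, against 15.8% of all genes. These were Jun at 1.87 (SE 0.30, adjusted p = 0.0014), Jund at 1.65 (SE 0.43, adjusted p = 0.0213) and Atf3 at 6.83 (SE 1.21, adjusted p = 0.0026), and the other 7 lay between -0.13 (Egr1) and 1.06 (Ier2). The Atf3 value rests on 6 reads in the ORS controls together and depends on the pseudocount. Both comparisons use the same HFSC control libraries. The Atf3 call against IFE was lost with a pseudocount of 0.1, without the filter on low reads, on the deposited scale, by limma-voom and with the replicate number as a block (adjusted p of 0.0508 to 0.166 by limma). It was also lost in 9 of the 12 fits that left out a library (adjusted p of 0.0541 to 0.371 there), with a difference of 1.40 without IFE control E360 and 5.94 without IFE control E341. Egr1 against IFE was not called without the filter (adjusted p = 0.0706), nor without IFE control E360 (1.05, adjusted p = 0.274), L94 (adjusted p = 0.235) or L136 (0.0554), and was 3.47 without IFE control E341. Jund against ORS was not called without either ORS control or either HFSC control (adjusted p of 0.067 to 0.133), nor on the deposited scale (0.73, adjusted p = 0.224), where the median of all genes was -0.91 and 606 genes were called higher and 4397 lower, against 1134 and 1274 here. Jun in both comparisons and Fosl2 against IFE passed under every alternative run, Jun against ORS at 0.93 on the deposited scale.

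Over the 6 groups, the mean levels of Jun ordered HFSC control (302 ± 2.77 CPM, SD, n = 2), labelled HFSC knockout (243 ± 71.6), IFE control (98.2 ± 11.1), ORS control (84.0 ± 25.01), ORS knockout (71.5 ± 20.4) and IFE knockout (60.6 ± 5.16). Libraries of the 2 HFSC groups did not overlap with each other or with the next group, and the neighbours from IFE control downward did overlap. Egr1 ordered ORS control (194 ± 59.8 CPM), HFSC control (185 ± 94.8), labelled HFSC knockout (175 ± 54.4), IFE control (49.0 ± 48.1), ORS knockout (25.98 ± 8.65) and IFE knockout (24.99 ± 13.2). Its first 3 groups overlapped, as did its last 3, and no library lay between 118 CPM and 83.0 CPM. For Fos all neighbours overlapped except the last pair, ORS control (81.1 ± 44.7 CPM) and ORS knockout (19.0 ± 3.77).

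In both HFSC groups the libraries of a group differed more in Fos and Fosb than in most genes, and by more than these genes differed between the labels. Among 11275 genes averaging at least 5 CPM, the median difference between control libraries L94 and L136 was 0.33 on the log2(CPM + 0.5) scale. Fos differed by 3.28, or 9.82-fold, and 0.408% of the genes differed as much or more. Fosb differed by 3.29, or 10.7-fold (0.399% of genes). Between L97 and L95, labelled knockout, Fosb differed by 3.31, or 10.97-fold (0.665% of genes), and Fos by 2.03, or 4.11-fold (2.61% of genes), where the median was 0.32. Jun, Junb and Jund differed by 0.02, 0.17 and 0.09 between the controls and by 0.61, 0.62 and 0.01 between the libraries labelled knockout, and 24.8% of genes differed as much as Jun in the latter pair. The IFE controls held a different set: E341 exceeded E360 by 41.3-fold in Atf3 (0.532% of genes with as large a difference), 6.77-fold in Fosb (4.05%), 5.54-fold in Egr1 (4.85%) and 3.38-fold in Fos (9.29%), and differed little in Jun, Jund, Junb and Ier2. In IFE knockouts Ier2 was 7.02-fold higher in E359 than in E358 (6.14% of genes with as large a difference). The library of a group with more Fos also had more Fosb in 5 of the 6 groups, more Jun and Atf3 in 4, more Egr1, Fosl2, Junb and Jund in 3 and more Ier2 in 2. Across the 12 libraries Pearson's r with Fos was 0.865 for Fosb, 0.651 for Jund, 0.588 for Junb, 0.532 for Atf3, 0.471 for Fosl2, 0.354 for Fosl1, 0.312 for Jun, 0.294 for Egr1 and 0.285 for Ier2, as a description of libraries that share compartments and depth.

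**Figure D4:**
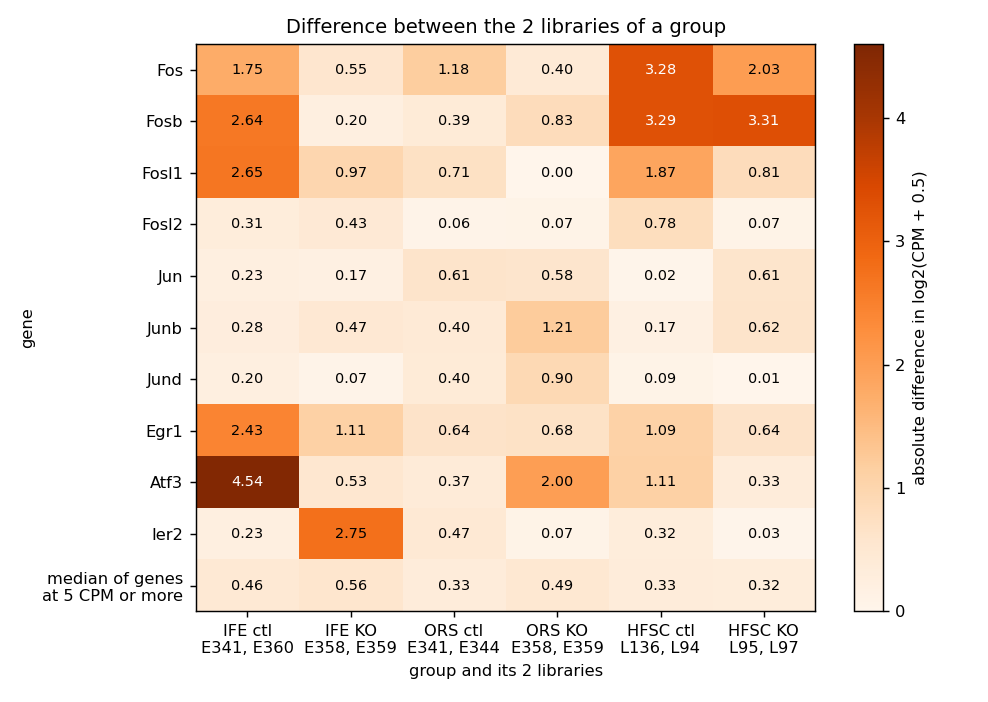
Absolute difference in log2(CPM + 0.5) between the 2 libraries of each group (columns) for each gene (rows), with the median of 11275 genes in the last row. Fos and Fosb reach 2.03 to 3.31 in both HFSC groups and Atf3 reaches 4.54 in IFE controls, against medians of 0.32 to 0.56.

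Genes whose levels followed a member over the 12 libraries were ranked by Pearson's r among 11266 other genes averaging at least 5 CPM. Jun was followed most closely by Klc3 (0.970), Pmp22 (0.960), Scube2 (0.960), Per3 (0.959) and Igsf10 (0.957), which like Jun were measured over compartments that differ throughout. Nearest to Fos were Ap1ar (0.886), Nenf (0.840), Dus1l (0.834), Abcc5 (0.832) and Ell3 (0.830). For Egr1 the nearest were Yipf6 (0.906), Gm9900 (0.905), Stbd1 (0.905), Gm129 (0.902) and Mta3 (0.894), and for Fosl1 they were Plekhf1 (0.896), Ppp1cb (0.822), Ehf (0.821), Cyp2b19 (0.819) and Otud1 (0.813).

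Other genes of the response were read from lists. Of 38 tested other immediate-early genes, such as the EGR, NR4A and KLF family members and the phosphatase gene Dusp1, limma called none in any compartment, and 0, 3 and 5 had an unadjusted p under 0.05 in ORS, IFE and HFSC, where 3.38%, 7.54% and 7.58% of all genes did. In ORS, where Egr1, Fos and Fosb were low in the knockouts, 18 of the 38 were fitted higher and 20 lower, with a median log2 fold change of -0.04 against -0.03 over all genes. The 3 with the lowest p there were Zfp36, an RNA-decay factor (-1.60, SE 0.73), Cyr61, a secreted matrix protein (-0.87, SE 0.51), and Socs3, a cytokine signalling inhibitor (1.502, SE 0.88), each with a limma adjusted p of 1. Egr2, which belongs to the family of Egr1, was at 56.6 and 60.6 CPM in ORS controls and 21.2 and 39.4 CPM in ORS knockouts (-1.01, SE 0.91, limma adjusted p = 1). Egr2 is named here outside the rule for list genes, after its values were seen. In IFE 17 of 38 were fitted higher and 21 lower (median -0.26), and Sgk1, a kinase gene (-3.79, SE 0.96, adjusted p = 0.420), Bhlhe40 (-2.41, SE 0.86, adjusted p = 0.545) and Trib1 (-2.75, SE 1.09, adjusted p = 0.598) had the lowest limma p.

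In HFSC 31 of the 38 were fitted higher in the libraries labelled knockout and 7 lower, with a median of 0.37 against 0.00 over all genes and 0 called. Sgk1 was at 590.1 and 595.9 CPM in controls L136 and L94 and at 928 and 1027 CPM in L95 and L97 (0.72, SE 0.14, limma adjusted p = 0.313), and Dusp1, the ERK and p38 phosphatase, at 60.8, 78.8, 102 and 193 CPM in the same order (1.01, SE 0.32, limma adjusted p = 0.540). Socs3 went the other way, with control values of 44.0 and 46.5 CPM against 19.3 and 19.2 CPM under the knockout label (-1.21, SE 0.30, limma adjusted p = 0.430). Of 20 AP-1 target genes of keratinocytes, 12 were tested in HFSC. Of these 10 were fitted higher and 2 lower, with a median of 0.97 against 0.00 over all genes and 0 called. The 3 with the lowest limma p were Plaur, the urokinase receptor (4.04, SE 0.73, adjusted p = 0.284), Hmox1, heme oxygenase (1.79, SE 0.42, adjusted p = 0.420), and Ptgs2, an inducible prostaglandin synthase (4.03, SE 1.07, adjusted p = 0.479). Plaur was at 10.1 and 10.4 CPM in L95 and L97 and at 0.355 CPM and 0 in controls L136 and L94, so its pattern over the 4 libraries was that of Fosl1. In controls L136 and L94 Plaur had 4 and 0 reads and Ptgs2 0 and 79, so the sizes of these differences are imprecise. Plaur had 165 and 166 reads in L95 and L97 and passed the filter on low reads only through them. The same holds for Dusp2 of the other immediate-early genes, with 0 and 0 against 20 and 73 reads. Both genes could therefore only be counted as fitted higher in their lists. The same list had 10 of 13 tested genes fitted lower in IFE (median -0.31) and 8 of 13 lower in ORS (median -0.23), against -0.03 over all genes in each. Hbegf, an EGFR ligand, was at 13.2 and 6.99 CPM in ORS controls and 1.55 and 0.376 CPM in ORS knockouts (-2.92, SE 1.47, limma adjusted p = 1).

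Of 10 tested bZIP partner genes, 5 were fitted higher and 5 lower in IFE and likewise in ORS, and 6 of 7 were higher in HFSC (medians -0.09, 0.11 and 0.10). Maff, a small MAF protein, was at 4.52 and 0.459 CPM in HFSC controls L136 and L94 and 11.3 and 9.11 CPM in L95 and L97 (2.28, SE 0.87, limma adjusted p = 0.602), and Atf4, a stress-response factor, at 116 and 136.4 CPM against 186 and 173 CPM (0.51, SE 0.18, limma adjusted p = 0.582). Of 19 upstream kinase and SRF partner genes, 11, 12 and 11 were fitted higher in IFE, ORS and HFSC, with medians of 0.13, 0.21 and 0.15 and none called. Rps6ka3, which encodes the ERK-activated kinase RSK2, was at 39.1 and 25.2 CPM in ORS controls and 80.2 and 62.1 CPM in ORS knockouts (1.16, SE 0.40, limma adjusted p = 1), and at 17.2 and 17.5 CPM in HFSC controls against 35.2 and 32.3 CPM (0.94, SE 0.32, limma adjusted p = 0.560). In the 13 heat shock genes, which respond to cell dissociation, none was called, with medians of 0.10, 0.03 and -0.18 in IFE, ORS and HFSC.

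**Figure D5:**
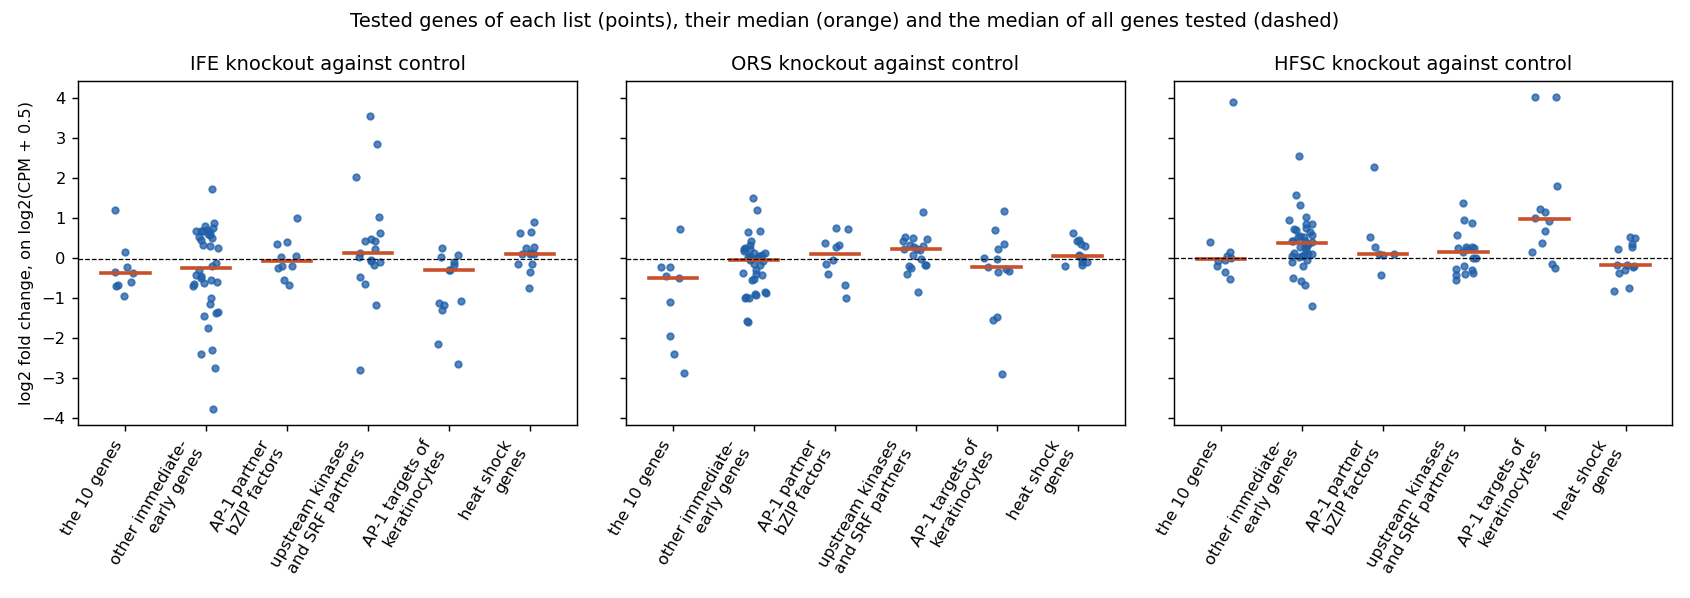
Limma log2 fold change, on log2(CPM + 0.5), of every tested gene of 6 lists in the 3 compartments. Points are genes, orange bars list medians and the dashed line the median of all genes tested; the median of the 9 tested genes of the set is -0.50 in ORS, and the AP-1 targets have a median of 0.97 in HFSC.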

How the data were processed

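RNA was isolated with PicoPure and amplified with SMARTer Ultra, per the labels' protocols, and sequenced as paired reads of 150 bp, per the series' design text. Trim Galore, DESeq2 and mm10 are listed in the submitters' processing notes with no role given, and the aligner is not given in the sources used here. The authors deposited log2 reads per 1000000 of the library total for each gene, with 0 reads entered as 0.9 read. These values gave whole reads to within 0.2 reads, and reads in genes were rescaled to CPM by TMM over 12 libraries (trims of 30% and 5%). The total used by the authors includes reads outside genes, so values on their scale move with the share of reads in genes.

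Genes with 10 reads at the median library size in 2 libraries and 15 in total were tested. Limma 3.58.1 in R 4.3.3 (trend and robust, Benjamini-Hochberg adjustment over all genes, two-sided, threshold 0.05) was run on log2(CPM + 0.5), once for the 8 IFE and ORS libraries (4 residual degrees of freedom), once for the 4 HFSC libraries (2) and once for all 12 (6) where HFSC met the others. There were 9 comparisons. The deposited values are log2 values and not counts. The main fits used a log scale of the recovered reads, and limma-voom used those reads as counts. The script was tested on simulated data. Alternatives were another pseudocount (0.1 or 2), filter (50 reads or none), scaling (median of ratios, the deposited scale, or TMM within a fit, the last chosen after seeing the data), limma-voom, other sets of libraries, leaving out each library, and a block. Replicates differed by more than sampling noise, so none was merged. Intervals and floors of 3 reads cover counting error only where they are given for single libraries.

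In every comparison the tested members are given by value or by a range over those not named, and Fosl1 was not tested in the IFE and ORS libraries. Of each other list, called genes are named, or the 3 with the lowest p, and for likeness the 5 genes with the highest Pearson correlation among genes averaging at least 5 CPM. Members and lists were chosen with earlier results of these data known.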

Additional observations from a re-analysis of the deposited data

How the results depend on the processing

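Of 857 alternative values for 48 results, 801 kept direction and side of the threshold, 35 lost their call, 0 gained one and 21 changed sign, 20 of them on leaving out a library. For differences between compartments the 48 results held only genes already called in the main fit, so a gained call could not be counted there. On the deposited scale 5 of the 9 genes were called for ORS against IFE, against 4, with Jun and Egr1 gained and Jund lost. Numbers of genes called in IFE knockouts were 3 with the filter at 50 reads, 1 on the deposited scale, 24 with all 12 libraries and 5 with IFE alone, against 0. In HFSC they were 7 with the filter at 50 reads, 6 with a pseudocount of 2, 1 without the filter, 2 on the deposited scale, 0 by limma-voom and 1 with all 12 libraries, against 5. On the deposited scale 7113 genes were called for ORS against IFE and 5003 for HFSC against ORS controls, against 2280 and 2408. Without the filter 2 of the 10 genes were called for HFSC against IFE controls, against 4. For the difference of effects, 1 gene was called in HFSC minus IFE with a pseudocount of 0.1 and 1 on the deposited scale, and 2 in HFSC minus ORS by limma-voom, against 0. The cause was not tested.

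Leaving out 1 library gave 0 to 53 genes called in IFE (53 without knockout E359), 0 to 2 in ORS and 1 to 27 in HFSC (18 without L136, 27 without L94, 2 without L95, 1 without L97). It gave 1215 to 2685 genes and 2 to 4 of the set for ORS against IFE, 1839 to 3784 and 2 to 5 for HFSC against IFE controls, and 1062 to 2745 genes for HFSC against ORS controls. For differences of effects it gave 0 to 2 genes (ORS minus IFE), 0 to 93 (HFSC minus IFE) and 0 to 6 (HFSC minus ORS). The HFSC minus IFE value then ranged from -3.99 to 0.548 for Atf3 and -0.378 to 2.37 for Ier2. In IFE the log2 fold change then ranged from -1.59 to 0.16 for Fos, -1.55 to 1.09 for Fosb, -0.0806 to 0.40 for Junb, -1.82 to 0.61 for Egr1, -1.09 to 3.46 for Atf3 and -2.32 to 0.43 for Ier2. In ORS it ranged from -0.54 to 0.0777 for Jun and -0.28 to 1.72 for Atf3. In HFSC it ranged from -1.49 to 1.78 for Fos, -1.74 to 1.59 for Fosb, -0.44 to 0.33 for Fosl2, -0.56 to 0.53 for Egr1, -1.09 to 0.0194 for Atf3 and -0.11 to 0.21 for Ier2, which was -0.00442 on the deposited scale.

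Libraries E341, E358 and E359 share a number between IFE and ORS. Their deviations from the group means correlated at 0.0534, 0.0727 and 0.0727 over 11275 genes. The values of E358 and E359 are the same quantity, since these are the only 2 libraries of each knockout group. Sex by Xist and Y-linked reads matched within each number, male for E341 and female for E358 and E359. The main fits did not treat the numbers as pairs, but a low correlation cannot exclude a shared animal. With the number as a replicate block, 2572 genes and 4 of the set were called for ORS against IFE, and 3 of the set for HFSC against IFE controls, where Atf3 was at 3.66 (limma adjusted p = 0.0508). Fosl1 and Atf3 had under 10 reads in several IFE and ORS libraries, so their fold changes there are imprecise.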

Other observations

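The HFSC libraries with more Fos and Fosb were compared over the list of other immediate-early genes. Of its 30 genes averaging at least 5 CPM, 18 were higher in control L94 than in control L136 (60%, against 49.4% of all genes), with a median difference of 0.05 on the log2(CPM + 0.5) scale. Between L97 and L95, labelled knockout, 20 of 30 were higher in L97 (66.7%, against 49.6% of all genes), with a median of 0.23. Nr4a1, an orphan nuclear receptor gene, was at 28.6 CPM in L94 and 2.84 CPM in L136, and at 19.9 CPM in L97 and 12.8 CPM in L95. Nr4a2, of the same family, was at 17.8 CPM in L94 and 0.266 CPM in L136, but at 9.24 CPM in L97 and 12.3 CPM in L95. Cyr61 was at 149 CPM in L94 and 80.5 CPM in L136, and at 328 CPM in L97 and 118 CPM in L95. These 3 genes were named after their values were seen.

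Of the heat shock genes, which respond to cell dissociation, 5 of 13 were higher in L94 than in L136, the HFSC control with less Fos (median -0.04), while 10 of 13 were higher in L97 than in L95 (median 0.18). In ORS controls 12 of 13 were higher in E341 than in E344 (median 0.24, 92.3% against 52.7% of all genes), and Fos was also higher in E341. In IFE controls 10 of 13 were higher in E341 than in E360 (median 0.21, 76.9% against 52% of all genes). In IFE and ORS knockouts 6 of 13 were higher in E359, the library with more Fos (46.2%, against 49.9% and 49.5% of all genes). The part of cell handling in these differences was not tested.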
